A study of Mus musculus with 6 samples.

Results

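Hox genes encode homeodomain transcription factors that give cells a position along the head to tail axis, and 28 of the 24938 genes listed for each library are described here as members. They were taken by Ensembl gene, where the mouse GENCODE M21 annotation names a protein-coding Hoxa, Hoxb, Hoxc or Hoxd gene with a paralog number. Of 38 annotated genes considered, the other 10 (Hoxa11, Hoxa13, Hoxb1, Hoxc9, Hoxc12, Hoxc13, Hoxd1, Hoxd10, Hoxd11 and Hoxd12) are not listed in the files and were not analysed here, and no listed gene was at 0 in all 6 libraries.

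RNA was sequenced from NIH3T3, an established mouse embryonic fibroblast line, in 6 libraries. Wild type cells gave the 3 control libraries, and the 3 overexpression libraries were made from NIH3T3 cells that overexpress F-CircAE, a circular RNA related to the AML1-ETO fusion of human acute myeloid leukaemia. The labels give no vector, clone or duration of expression, name no empty vector for the controls, whose titles carry the letter V without explanation, and do not name separate cultures, so that the p-values cover only the variation among these 6 libraries, which may be technical. Values are FPKM, which scale the fragments of a gene to its length and to the size of the library, so levels can be compared between genes.

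The Hox genes lie in the clusters HoxA, HoxB, HoxC and HoxD, and genes of the same paralog number descend from one ancestral gene. Within a cluster, low paralog numbers lie at one end and are used at the head side of the body, while high numbers lie at the other end and are used towards the tail and the tips of the limbs. Polycomb complexes keep unused segments silent, Trithorax and MLL complexes keep used segments active, and fibroblasts in culture commonly retain the Hox pattern of the body site they came from.

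Reads recovered from the steps of the FPKM values came to 16968180 to 21842251 per library. Control replicates 1 and 2 stood closer together than any other pair of libraries, with a chi-square per gene of 1.46 against 5.15 to 25.1 for the other pairs. Counts of genes called and the direction of the Hox differences are therefore also given with those libraries averaged to 1. The summed level of 9 fibroblast markers was 1938 to 2456 FPKM in the controls and 1738 to 2142 FPKM in the overexpression libraries, and all 9 were listed. Vim (mean 594 FPKM) and Col1a1 (541 FPKM) were the highest of them, and S100a4 (2.66 FPKM) and Thy1 (2.22 FPKM) the lowest. The summed level of 4 listed epithelial markers was 2.75 to 3.73 FPKM in the controls and 2.95 to 3.33 FPKM with overexpression, and Epcam was not listed. Most of that sum came from Cdh1 (mean 2.58 FPKM). The summed level of 2 listed endothelial markers, Pecam1 and Cdh5, reached at most 1.08 FPKM. Blood markers summed to 4.49 to 6.08 FPKM in the controls and 4.65 to 6.40 FPKM with overexpression, nearly all from Cd68 (mean 5.21 FPKM), while Ptprc was at 0.0079 FPKM. Neural markers summed to 5.88 to 9.09 and 6.29 to 11.9 FPKM, nearly all from Tubb3 (mean 7.80 FPKM), and of the muscle markers only Des was listed (mean 2.13 FPKM). The part of these markers in the Hox results was not tested. Sox2, Myod1, Myog and the pluripotency genes Pou5f1 and Nanog were not listed.

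A Hox gene was called on where its mean over the 6 libraries was at least 1 FPKM, and 19 of the 28 listed genes were on. In HoxA 7 genes were on, Hoxa2 to Hoxa7 and Hoxa10. In HoxB 7 genes were on, an unbroken run from Hoxb3 to Hoxb9. In HoxC 3 genes were on, Hoxc4 to Hoxc6, and in HoxD 2 were, the neighbours Hoxd8 and Hoxd9. Of the 9 listed genes that were not on, Hoxb13 (0.892 FPKM), Hoxd4 (0.880 FPKM) and Hoxd3 (0.238 FPKM) had means between 0.1 and 1, and the other 6 were under 0.1 FPKM. Just inside the limit of 1 FPKM were Hoxb3 at 1.02 FPKM and Hoxa10 at 1.03 FPKM, so their calls rest on small margins.

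**Figure D1:**
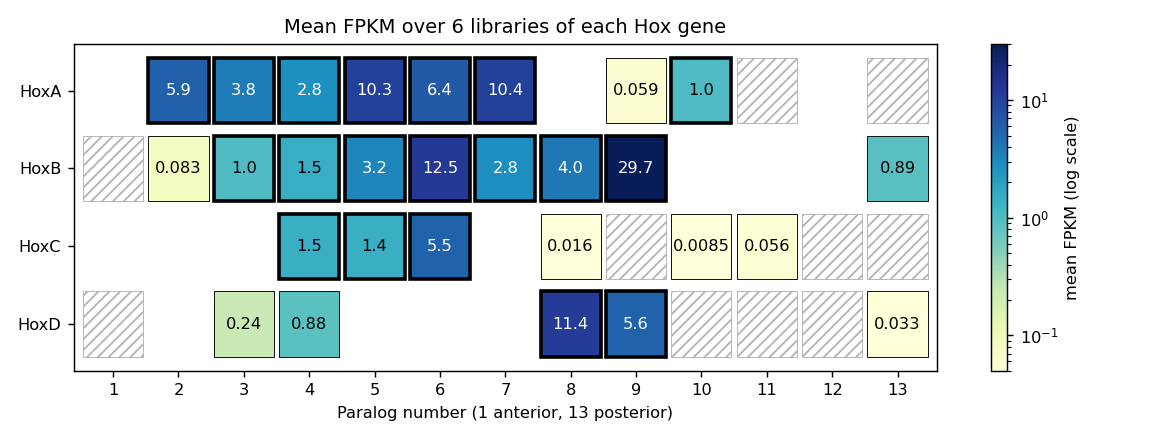
Mean FPKM over the 6 libraries (colour, log scale, and number in each box) of the 38 Hox genes considered, by cluster (rows) and paralog number (columns). Thick borders mark the 19 genes that were on, thin borders the 9 listed genes that were not, and hatched boxes the 10 genes that are not listed; the on genes fill the middle of the map.

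The central paralogs carried most of the Hox RNA. Paralog groups 4 to 9 had 15 of their 18 listed genes on and held 89.4% of the summed Hox FPKM. Paralog groups 1 to 3 had 3 of 5 listed genes on and held 8.97%, and groups 10 to 13 had 1 of 5 listed genes on and held 1.64%. By single paralog group, group 9 held 28.7% and group 6 held 19.9%. By cluster, HoxB held 45.2% of the summed Hox FPKM (42.8% to 49.3% over the 6 libraries), HoxA 33.1% (29.9% to 35.6%), HoxD 14.8% (14.05% to 15.6%) and HoxC 6.91% (6.17% to 7.48%). The order HoxB, HoxA, HoxD, HoxC therefore held in each library, since those ranges do not overlap.

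Hoxb9 was the most abundant Hox gene. It lies at chr11:96271457-96276595 on the plus strand (mm10, GENCODE M21; ENSMUSG00000020875), and with its paralogs it patterns the thoracic skeleton. Its level was 28.4, 28.7 and 32.5 FPKM in control replicates 1 to 3 and 30.03, 29.9 and 28.8 FPKM in overexpression replicates 1 to 3. All 6 libraries thus lay close together, with a coefficient of variation of 5.16% against 2.59% from counting alone, on 1309 to 1654 reads per library. Hoxb9 alone held 24.2% of the summed Hox FPKM and stood at percentile 92.4 of all listed genes, while the next Hox gene was at 12.5 FPKM. The 3 tested genes outside the Hox family whose log2(FPKM + 1) followed that of Hoxb9 best over the 6 libraries were Dctn5 (Pearson r = 0.997), 2810002D19Rik (r = 0.994) and Dda1 (r = 0.992). These are the highest r values of a search over all tested genes outside the Hox family. Each of the 3 genes, like Hoxb9, was highest in control replicate 3. The genes of such a pair come from the same 6 libraries, of which control replicates 1 and 2 are nearly alike, so these r values are a description.

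A group of 4 genes followed Hoxb9 at similar levels. Hoxb6 was at 12.4, 12.3 and 13.56 FPKM in the controls and 15.7, 10.4 and 10.5 FPKM with overexpression, and overexpression replicate 1 stood above the other 5. Hoxd8 was at 11.7, 12.8 and 10.8 FPKM in the controls and 10.1, 11.6 and 11.6 FPKM with overexpression. These groups overlapped, as did those of Hoxa7, a gene used in the thoracic region, at 10.8, 10.8 and 9.73 FPKM in the controls and 9.07, 11.6 and 10.3 FPKM with overexpression. Hoxa5, which is needed for the lung and the neck vertebrae, was at 12.4, 10.9 and 9.88 FPKM in the controls and 8.84, 10.3 and 9.70 FPKM with overexpression. The ranges of Hoxb6, Hoxd8, Hoxa7 and Hoxa5 overlap from each gene to the next, and together with Hoxb9 they made up 60.4% of the summed Hox FPKM.

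In the order of mean levels, the ranges over the 6 libraries were apart between only 4 pairs of neighbouring on genes. These were Hoxb9 (29.7 ± 1.53 FPKM, SD, n = 6) and Hoxb6 (12.5 ± 1.99 FPKM), Hoxa5 (10.3 ± 1.22 FPKM) and Hoxa6 (6.44 ± 0.996 FPKM), Hoxc6 (5.53 ± 0.348 FPKM) and Hoxb8 (3.98 ± 0.366 FPKM), and Hoxa4 (2.77 ± 0.475 FPKM) and Hoxb4 (1.46 ± 0.346 FPKM). The ranges of all other neighbours among the 19 overlapped, although Hoxd8 was above Hoxa7 in each of the 6 libraries. The span from Hoxb9 to Hoxb3 was 29.2-fold. The mean of an on gene was 3.98 FPKM at the median, beside a median of 0.863 FPKM over all listed genes and 8.37 FPKM over the tested genes.

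**Figure D2:**
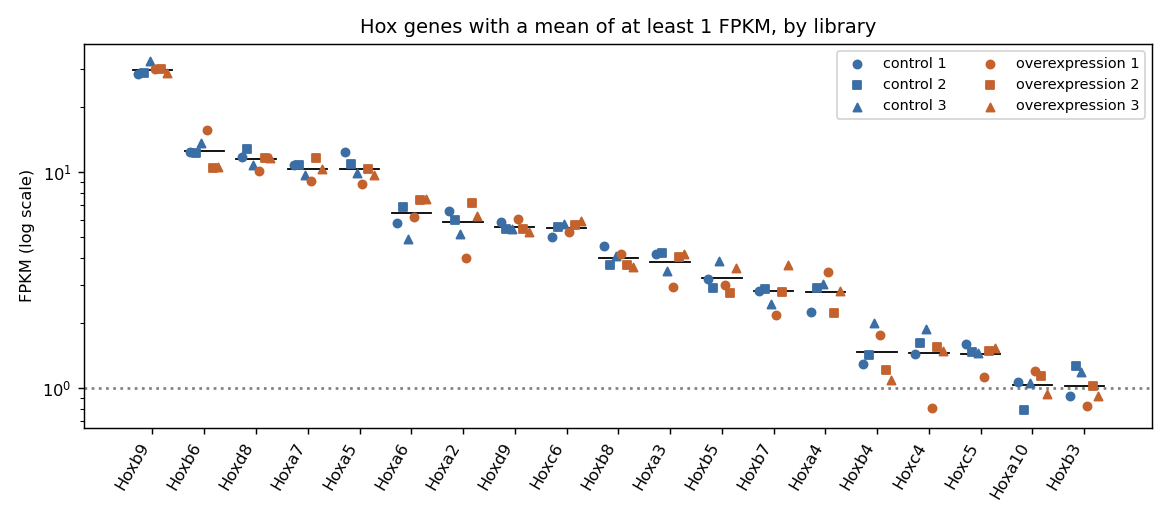
FPKM of each of the 19 Hox genes that were on (log axis), ordered by mean, with 1 symbol per library (blue for control, orange for overexpression) and a short line at the mean of the 6. Hoxb9 stands apart at 29.7 FPKM, and the dotted line marks 1 FPKM, below which single libraries of Hoxc4, Hoxa10 and Hoxb3 fall.

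In HoxA the genes anterior to Hoxa5 were on at low to moderate levels. Hoxa2, which sets the identity of the hyoid arch, was at 6.58, 5.99 and 5.18 FPKM in the controls and 3.99, 7.15 and 6.27 FPKM with overexpression. Hoxa3, needed for thymus and parathyroid, was at 4.18, 4.23 and 3.48 FPKM and 2.94, 4.03 and 4.17 FPKM. For Hoxa2 and Hoxa3, overexpression replicate 1 was the lowest of the 6 libraries, and the groups overlapped. Hoxa4, which acts in the neck vertebrae, was at 2.24, 2.91 and 3.01 FPKM in the controls and 3.45, 2.22 and 2.82 FPKM with overexpression. Hoxa6 was at 5.82, 6.86 and 4.90 FPKM in the controls and 6.22, 7.39 and 7.47 FPKM with overexpression, higher in the latter on average but with overlap.

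The run of HoxA genes broke at Hoxa9, which is an MLL target in leukaemia and a regulator of blood stem cells. Hoxa9 (chr6:52223100-52231089, minus strand) was at 0.0613, 0.0671 and 0.0187 FPKM in the controls and 0.0635, 0.0583 and 0.0864 FPKM with overexpression, on 2 to 9 reads per library. Its mean was 175-fold below that of Hoxa7 (chr6:52214491-52221854, minus strand), the next HoxA gene, and 17.4-fold below that of Hoxa10 on its other side. Over the 6 libraries Hoxa9 had 39 reads (exact Poisson 95% interval 27.7 to 53.3, counting error only), so the step from Hoxa7 is far larger than counting error. Hoxa10, which acts in the lumbar region and the uterus, was at 1.06, 0.788 and 1.05 FPKM in the controls and 1.19, 1.14 and 0.933 FPKM with overexpression. It was the only on gene of paralog groups 10 to 13.

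The 250 bases before the RefSeq start (GRCm38.p6, minus strand, 5′ to 3′) of Hoxa7 at chr6:52218574-52218823 and of Hoxa9 at chr6:52227371-52227620 are shown because these neighbours lie on either side of the sharpest step in HoxA.
Hoxa7: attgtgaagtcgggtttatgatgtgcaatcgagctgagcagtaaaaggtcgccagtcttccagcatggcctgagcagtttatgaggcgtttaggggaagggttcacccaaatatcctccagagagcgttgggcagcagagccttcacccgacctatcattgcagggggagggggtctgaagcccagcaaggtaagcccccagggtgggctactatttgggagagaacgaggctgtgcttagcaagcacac
Hoxa9: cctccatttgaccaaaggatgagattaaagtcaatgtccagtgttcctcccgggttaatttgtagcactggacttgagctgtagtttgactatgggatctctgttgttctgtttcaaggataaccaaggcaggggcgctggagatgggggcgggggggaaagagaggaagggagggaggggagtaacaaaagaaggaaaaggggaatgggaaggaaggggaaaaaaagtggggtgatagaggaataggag
The stretch held 7 CpG dinucleotides at Hoxa7 and 3 at Hoxa9, beside a median of 6 over the 32851 starts of the table. RefSeq starts were matched for 22 Hox genes, 11 of them on, with 24 starts in all. The median CpG count was 12.5 over the 12 starts of on genes and 7.5 over the 4 starts of listed genes that were not on. It was 16.5 over the 8 starts of genes not listed, which have no measured level here. Whether the count goes with expression was not tested. The letters TGATNNAT, a site form of PBX-HOX pairs, were sought on both strands and occurred in 4 of the 24 Hox starts (16.7%) against 7.68% of all starts. The letters TATAAA, sought on both strands, occurred in 4 of the 24 (16.7%) against 12.4% of all starts, and neither motif was found in the sequences of Hoxa7 and Hoxa9 above.

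In HoxB the levels varied along the run, with peaks at Hoxb6 and Hoxb9. Hoxb3, a hindbrain gene, was at 0.920, 1.26 and 1.18 FPKM in the controls and 0.820, 1.02 and 0.919 FPKM with overexpression. Hoxb4, known for expanding blood stem cells, was at 1.30, 1.42 and 1.99 FPKM in the controls and 1.75, 1.21 and 1.08 FPKM with overexpression. Hoxb5 was at 3.19, 2.89 and 3.86 FPKM in the controls and 3.01, 2.74 and 3.59 FPKM with overexpression. In these 3 genes the groups overlapped, and control replicate 3 was the highest of the 6 for Hoxb4 and Hoxb5. Hoxb7 was at 2.82, 2.88 and 2.44 FPKM in the controls and 2.18, 2.77 and 3.71 FPKM with overexpression, with the lowest and the highest value both in the overexpression group. Hoxb8, which immortalises myeloid progenitors when forced on, was at 4.56, 3.71 and 4.06 FPKM in the controls and 4.19, 3.70 and 3.62 FPKM with overexpression.

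The ends of the HoxB run were steep. Hoxb2 had a mean of 0.0834 FPKM on 35 reads in all, 12.2-fold below Hoxb3. Hoxb13, a gene of the tail bud and prostate, was at 0.753, 0.849 and 0.852 FPKM in the controls and 0.830, 0.927 and 1.14 FPKM with overexpression, on 31 to 47 reads per library. Hoxb13 lay 33.3-fold below Hoxb9 and yet was the most abundant gene of paralog groups 11 to 13.

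HoxC was on over a short anterior run. Hoxc4 was at 1.43, 1.605 and 1.87 FPKM in the controls and 0.805, 1.54 and 1.48 FPKM with overexpression, with overexpression replicate 1 the lowest. Hoxc5 was at 1.598, 1.47 and 1.45 FPKM in the controls and 1.13, 1.47 and 1.53 FPKM with overexpression. Hoxc6, a thoracic gene, was the highest of the cluster at 4.97, 5.56 and 5.73 FPKM in the controls and 5.30, 5.65 and 5.96 FPKM with overexpression. The next gene, Hoxc8, which acts in the lower thorax and in motor neurons of the forelimb, had 5 reads over the 6 libraries (Poisson 95% interval 1.62 to 11.7) and a mean 349-fold below that of Hoxc6. Hoxc8 had 0 reads in 3 libraries, which allows up to 0.0567 FPKM at 3 reads. Hoxc10, used in the lumbar region, had 2 reads in control replicate 1 and 0 in the other 5 libraries, which allows up to 0.0928 FPKM. Hoxc11 had 0, 1 and 1 reads in the controls and 2, 2 and 7 with overexpression, too few to read a level from.

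In HoxD an internal pair was on. Hoxd8 is given above, and Hoxd9, which acts in the lumbar region and limb, was at 5.86, 5.44 and 5.45 FPKM in the controls and 6.08, 5.42 and 5.29 FPKM with overexpression. On the anterior side Hoxd4, a gene of the neck vertebrae, lay 12.99-fold below Hoxd8. On the posterior side Hoxd13, the gene of the digits, had 9 reads in all and lay 172-fold below Hoxd9. Hoxd3 was at 0.268, 0.201 and 0.336 FPKM in the controls and 0.155, 0.211 and 0.255 FPKM with overexpression. Exons of Hoxd3 and Hoxd4 overlap on the same strand by 388 bases, so reads there could be given to either gene. Exons of a further gene, Gm28230, share 2225 bases with Hoxd3 and 1154 bases with Hoxd4 on the same strand. How reads in these stretches were counted is not known, so the levels of Hoxd3 and Hoxd4 are uncertain to that extent. The same holds for the step from Hoxd4 to Hoxd8.

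Exons of 7 listed Hox genes overlap another gene on the same strand and exons of 8 overlap one on the other strand, while 16 have no overlap. The use of strand in counting is not given in the sources used here. Levels of Hoxa7 (586 bases shared with Hoxaas3) and Hoxb3 (2250 bases with Hoxb3os), both on opposite strands, are therefore uncertain to that extent. So are those of Hoxa3 (503 bases with Hoxaas2, among others) and Hoxa4 (255 bases with Gm29430), also on opposite strands. On the same strand, Gm28308 shares 482 bases with Hoxa3 and 267 with Hoxa2. Hoxc5 shares 166 bases with Hoxc10 on the same strand, and Hoxa9 shares 85 with Mir196b.

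No Hox gene was called between the groups. Over all 12222 tested genes (FPKM above 1 in at least 3 libraries), limma on log2(FPKM + 1) called 0% at a Benjamini-Hochberg adjusted p of 0.05, and it called 0 of the 19 tested Hox genes, which are the 19 that were on. With control replicates 1 and 2 averaged it again called 0 of 19. At an unadjusted p under 0.05, 0 of the 19 Hox genes passed, beside 5.17% of all tested genes. Array weights, which let limma weigh libraries unequally, called 18.3% of all tested genes and 0 of the 19 Hox genes, with a smallest Hox adjusted p of 0.0859 (Hoxb6) and 3 at an unadjusted p under 0.05. With array weights and control replicates 1 and 2 averaged, limma called 0 of 12023 genes (smallest adjusted p = 0.497; 479 at an unadjusted p under 0.05). The Hox differences ran from -0.23 to 0.23 in log2(FPKM + 1), a scale on which changes of low genes come out too small, and limma adjusted p-values from 0.842 to 0.999. The 95% interval lay within 2-fold on that scale for 19 of 19 genes and within 1.5-fold for 18 of 19, the exception being Hoxc4, whose lower limit was -0.60. With a pseudocount of 0.1 these counts were 18 and 14 of 19, with a lower limit of -1.01 for Hoxc4, and with limma-voom on recovered reads they were 19 and 14 of 19. All these intervals take control replicates 1 and 2 as separate libraries, although they were nearly alike. The intervals may therefore be too narrow, and they are not given with those controls averaged. A p that misses the threshold does not show that the groups were alike, and in bulk RNA fewer cells with a gene on and less of its RNA per cell cannot be told apart.

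The estimate was below 0, that is lower with overexpression, for 13 of the 19 (68.4%) beside 46.8% of all tested genes. The median was -0.07 against 0.01 over all tested genes, and the median absolute difference was 0.08 in both. With single libraries left out, the share of Hox genes below 0 ran from 61.1% (11 of 18, without overexpression replicate 2) to 68.4%. It was 12 of 19 with control replicates 1 and 2 averaged, and 11 of 19 with array weights and those controls averaged. The share was not tested. The share over all genes was 57.4% when libraries were rescaled to equal total reads, beside 13 of 18 Hox genes. The median standard error of a Hox gene was 0.12, beside 0.09 over all tested genes.

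**Figure D3:**
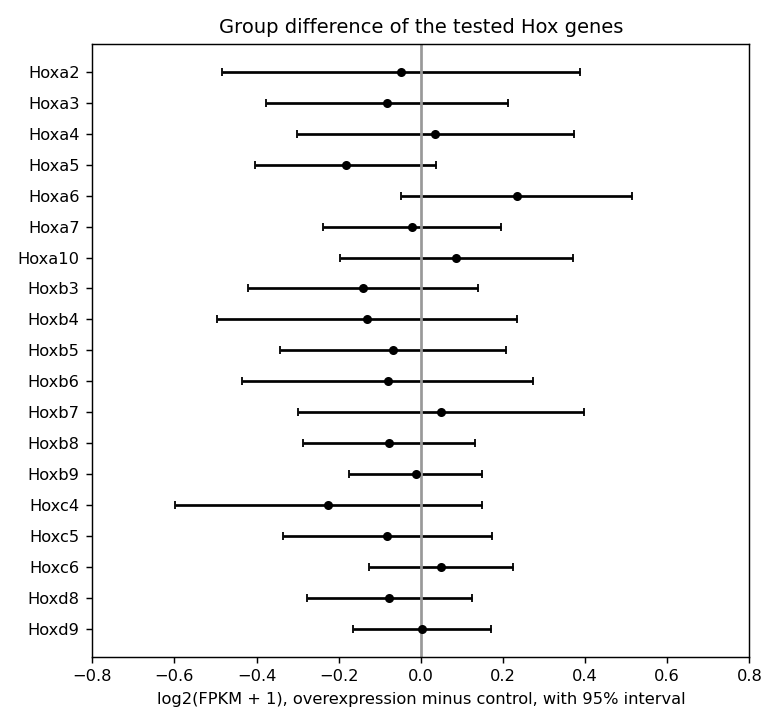
Difference in log2(FPKM + 1), overexpression minus control, for the 19 tested Hox genes from limma over 3 libraries per group, with 95% intervals (horizontal lines) and a grey line at 0. All 19 intervals contain 0, the estimates lying between -0.23 (Hoxc4) and 0.23 (Hoxa6).

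The sum of the FPKM of the 28 genes was 124.7, 124.7 and 124.4 in the controls and 118.8, 123.2 and 122.4 with overexpression, a mean of 124.6 ± 0.151 against 121.4 ± 2.36 (SD, n = 3 each). The HoxA sum was 40.98 ± 3.24 FPKM in the controls and 40.4 ± 4.19 with overexpression, and the HoxB sum was 56.4 ± 3.65 and 54.9 ± 3.19. The HoxC sum was 8.61 ± 0.535 and 8.40 ± 0.950 FPKM, and the HoxD sum was 18.6 ± 1.04 and 17.7 ± 0.510. All 3 controls lay above all 3 overexpression libraries in this total, which was not tested. Within each cluster the group means lay closer together than the sum of their SDs. The near equality of the 3 control totals was not seen cluster by cluster, where control replicate 3 was low in HoxA and high in HoxB.

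The 3 Hox genes with the smallest p were Hoxa5, Hoxa6 and Hoxc4, and in each of them the groups overlapped. The controls lay wholly above the overexpression libraries for 0 of the 19 tested Hox genes, beside 4.69% of all tested genes, and wholly below for 0 of the 19, beside 6.81% of all.

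Hoxa5 (chr6:52201754-52204587, minus strand; ENSMUSG00000038253) averaged 11.1 ± 1.26 FPKM in the controls and 9.60 ± 0.722 with overexpression (SD, n = 3 each), a difference of -0.18 with a standard error of 0.09 (limma adjusted p = 0.842), or -0.11 without control replicate 1. Hoxa6 (chr6:52206288-52208722, minus strand; ENSMUSG00000043219), the next gene in the cluster, averaged 5.86 ± 0.979 and 7.03 ± 0.704 FPKM, a difference of 0.23 with a standard error of 0.12 (limma adjusted p = 0.842), or 0.13 without control replicate 3. These adjacent HoxA genes thus had estimates of opposite sign, neither past the threshold. Hoxc4 (chr15:103018934-103036852, plus strand; ENSMUSG00000075394) averaged 1.63 ± 0.223 and 1.27 ± 0.408 FPKM, a difference of -0.23 with a standard error of 0.16 (limma adjusted p = 0.843). Its reads were 75, 88 and 92 in the controls and 35, 85 and 71 with overexpression, and without overexpression replicate 1 the difference was -0.067.

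Among the listed genes too low for the test, the groups of 2 did not overlap, Hoxd4 with the controls higher (5.39% of all genes below the filter) and Hoxc11 with the controls lower (3.04%). Hoxd4 (chr2:74711929-74729160, plus strand; ENSMUSG00000101174) was at 1.01, 1.05 and 0.921 FPKM in the controls and 0.741, 0.725 and 0.835 FPKM with overexpression. All 3 controls of Hoxd4 were above all 3 overexpression libraries, on 61, 66 and 52 reads against 37, 46 and 46. With limma-voom on recovered reads the difference of Hoxd4 was -0.37 (adjusted p = 0.846). Hoxc11 was higher with overexpression on the 0 to 7 reads per library given above.

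**Figure D4:**
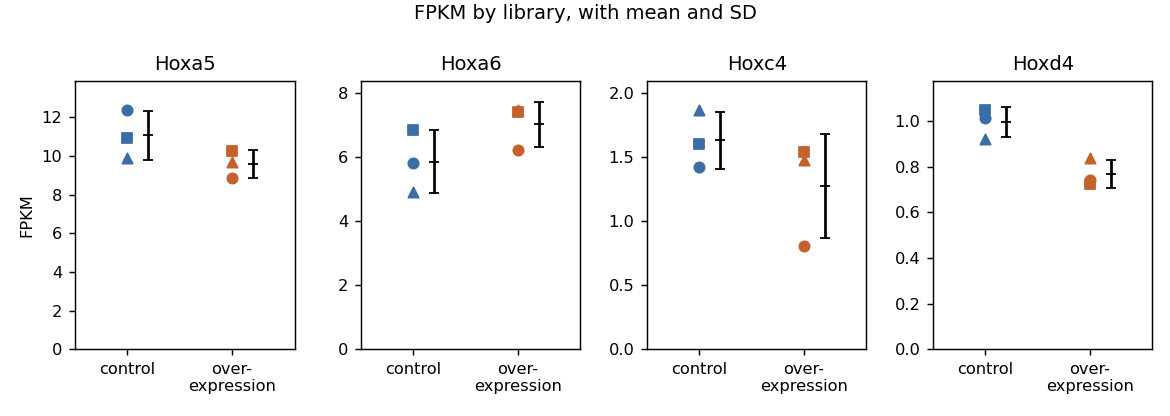
FPKM by library (points; circle, square and triangle for replicates 1, 2 and 3) with mean and SD (bars) in the control and overexpression groups, for the 3 tested Hox genes with the smallest p and for Hoxd4, which was too low for the test. The groups overlap for Hoxa5, Hoxa6 and Hoxc4 and do not overlap for Hoxd4.

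The Hox clusters also hold noncoding genes, among them the microRNA genes Mir10a, Mir10b, Mir196a-1 and Mir615. The miR-196 family is known to repress Hox messages, most of all Hoxb8. The mature sequences (RefSeq, GRCm38.p6, 5′ to 3′, with the seed, bases 2 to 8, in capitals) are shown with the best paired site of a Hox 3′ UTR.
mmu-miR-196a-5p: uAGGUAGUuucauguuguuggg
mmu-miR-196b-5p: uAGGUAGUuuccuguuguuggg
mmu-miR-10a-5p: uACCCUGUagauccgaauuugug
mmu-miR-10b-5p: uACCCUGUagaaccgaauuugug
Hoxb8 site: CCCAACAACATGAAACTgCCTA
The site lies in the Hoxb8 3′ UTR at chr11:96284888-96284909 on the plus strand, and its capitals mark bases that form Watson-Crick pairs with miR-196a-5p. All 22 bases pair, 21 of them as Watson-Crick pairs and 1 as a G:U pair, which 2 of the 20900 UTRs searched reach. miR-196a and miR-196b share one seed, as do miR-10a and miR-10b. The letters that match the miR-196 seed, ACTACCT, sought on the message strand, occur in the 3′ UTRs of 8 of the 38 Hox genes considered and 5 of the 19 on (Hoxa4, Hoxa5, Hoxa7, Hoxb6 and Hoxb7), beside 6.11% of 20979 UTRs. Hoxa7 holds 4 matches and Hoxc8 holds 2. The match to the miR-10 seed, ACAGGGT, occurs in 3 of the 38 and 2 of the 19 on (Hoxa3 and Hoxb3), beside 12.5% of all. These are matches of letters, and mature microRNAs were not measured.

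Mir196a-1 (chr11:96265164-96265265), upstream of Hoxb9, was the one microRNA gene of the clusters with more than 8 reads in any library. It was listed at 58.5, 67.5 and 104 FPKM in the controls and 82.2, 82.0 and 106 FPKM with overexpression. The groups overlapped, with the third replicate highest in each. These values rest on 122 to 203 reads over a 102-base gene and come from long RNA libraries, so they are no measure of the mature miRNA. The difference was 0.26 (limma adjusted p of at least 0.842). Mir615 had 0 to 8 reads per library, Mir10a 0 to 4 and Mir10b 0 to 2, and Mir196a-2 and Mir196b were not listed.

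Of the noncoding genes of the clusters, 11 were listed and 7 tested, with 0 called, 4 estimates above 0 and 3 below. The antisense gene Hoxaas3 was at 2.10, 2.07 and 1.70 FPKM in the controls and 1.25, 1.56 and 1.65 FPKM with overexpression, all controls above all overexpression libraries (difference -0.25). Hoxaas2 had a difference of -0.18 (-0.087 without overexpression replicate 1), with groups that overlapped. Hotairm1, a noncoding gene of HoxA known from myeloid cells, was at 0.811, 0.868 and 1.02 FPKM in the controls and 1.04, 1.04 and 1.41 FPKM with overexpression, all above the controls. Its reads were only 17, 19 and 20 in the controls and 18, 23 and 27 with overexpression (limma adjusted p = 0.843). Before scaling to library size these counts overlapped, overexpression replicate 1 being the smallest library (16968180 recovered reads). Hoxb5os was at a mean of 6.58 FPKM, above its sense partner Hoxb5 at 3.21 FPKM. On opposite strands, Hoxb5os shares 100 exon bases with Hoxb5, and Hoxaas3 shares 586 with Hoxa7 and 297 with Hoxa3. As the use of strand in counting is not known, the levels of these antisense genes are uncertain to that extent.

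Genes flanking the clusters spanned a wide range of levels. Beside HoxA, Skap2 was on at 6.49 FPKM, while Evx1 at the Hoxa13 end was not listed. Beside HoxD, Lnpk and Mtx2 were at 6.47 and 22.8 FPKM, and Evx2, at the Hoxd13 end, had 0 to 3 reads per library. Skap1, beside HoxB, was at 0.0892 FPKM. Hnrnpa1, which encodes an RNA-binding protein and lies farther from HoxC than Cbx5, was at 517 FPKM. Of 19 listed flanking genes 14 were tested, 0 were called, and 8 estimates were above 0 and 6 below. Hnrnpa3, which lies farther from HoxD than Mtx2, had a difference of 0.14 (0.069 without overexpression replicate 1 and 0.22 without overexpression replicate 3). Cbx5, a heterochromatin protein gene, had a difference of 0.07, and for both genes the groups overlapped.

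Hox proteins bind DNA with TALE homeodomain cofactors of the PBX and MEIS families. Of 11 TALE genes considered, with Tgif1 and Tgif2 from outside those families among them, 8 were tested. Of these 0 were called, with 5 estimates above 0, 3 below and a median of 0.01. Pbx2 was at 13.3, 13.1 and 10.8 FPKM in the controls and 11.6, 12.0 and 13.7 FPKM with overexpression. Tgif1, a TALE repressor, was at 16.3, 16.6 and 13.5 FPKM and 12.7, 17.0 and 17.4 FPKM. Both pairs of groups overlapped. Meis3 was at 9.95, 10.03 and 9.40 FPKM in the controls and 9.38, 9.52 and 9.04 FPKM with overexpression. Meis2 was at 2.63, 2.76 and 2.73 FPKM in the controls and 2.84, 3.13 and 2.79 FPKM with overexpression, all above the controls, with a difference of 0.08.

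Of the Trithorax and MLL genes 13 of 13 were tested and 0 called, with 6 estimates above 0, 7 below and a median of -0.01. Kmt2a, which encodes MLL and maintains Hox expression, was at 27.4, 27.3 and 24.5 FPKM in the controls and 19.1, 23.3 and 27.9 FPKM with overexpression. Kmt2d was at 21.1, 21.1 and 22.5 FPKM in the controls and 16.9, 17.1 and 20.7 FPKM with overexpression, all lower than the controls (difference -0.23). Dpy30, a core subunit, was at 26.8, 31.7 and 29.9 FPKM and 37.2, 32.2 and 32.05 FPKM, all higher than the controls (difference 0.19, or 0.12 without overexpression replicate 1 and 0.13 without control replicate 1).

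Of the Polycomb genes 27 of 28 were tested and 0 called, with 14 estimates above 0, 13 below and a median within 0.01 of 0. The highest were Rbbp7 at a mean of 105.6 FPKM and Cbx6 at 51.6 FPKM. Pcgf2, a PRC1 subunit, was at 17.5, 18.2 and 16.8 FPKM in the controls and 13.7, 16.0 and 16.1 FPKM with overexpression (difference -0.19, or -0.12 without overexpression replicate 1). Rbbp4, a histone-binding subunit of PRC2, was at 20.9, 21.3 and 21.1 FPKM and 22.6, 23.0 and 23.1 FPKM (difference 0.11). For both genes the groups did not overlap, but limma adjusted p-values were at least 0.842 with equal library weights.

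Other homeobox and T-box genes that mark body position gave 23 listed and 13 tested genes, of which 0 were called, 3 estimates lay above 0, 10 below, and the median was -0.09. Prrx1, a marker of limb and craniofacial mesenchyme, had a mean of 21.6 FPKM and Tbx15 a mean of 14.8 FPKM. Tbx4, a gene of the hindlimb and lung mesenchyme, was at 2.89 FPKM, while Pitx1, the hindlimb factor upstream of it, was at 0.020 FPKM. En1 was at 4.86, 5.03 and 4.42 FPKM in the controls and 4.25, 4.36 and 3.999 FPKM with overexpression (difference -0.15). Emx2 was at 4.41, 4.15 and 3.88 FPKM and 2.71, 3.78 and 3.57 FPKM (difference -0.25, or -0.14 without overexpression replicate 1). All 3 controls of En1 and of Emx2 lay above all overexpression libraries, and limma adjusted p-values were at least 0.842.

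Retinoic acid switches on anterior Hox genes through its nuclear receptors. Of 16 listed genes of that pathway 9 were tested and 0 called, with 3 estimates above 0, 6 below and a median of -0.03. The receptor gene Rarg was at 32.9 FPKM and Rdh10, which makes retinaldehyde, at 18.3 FPKM. Cyp26b1, which breaks retinoic acid down, was at 5.94, 5.64 and 10.2 FPKM in the controls and 5.01, 5.05 and 5.32 FPKM with overexpression, all below the controls (difference -0.39, or -0.15 without control replicate 3, which stood above the rest). Aldh1a1, which makes retinoic acid, was at 3.404, 2.81 and 3.002 FPKM in the controls and 3.08, 1.36 and 1.33 FPKM with overexpression, where overexpression replicate 1 lay among the controls. Its difference was -0.53 (limma unadjusted p = 0.047, adjusted p of at least 0.842), or -0.79 without overexpression replicate 1.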

How the data were processed

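RNA of 6 NIH3T3 libraries was analysed, 3 per group. Groups and replicate numbers came from the genotype and title labels. The values are FPKM per Ensembl gene, deposited by the authors and named so per the file headers. The build was mm10, per the submitters' processing notes, and the sources used here do not give the aligner, the counter, its strand use or its annotation. Symbols, positions and lengths came from GENCODE M21, with a symbol for 24816 of 24938 genes. The members and lists were chosen with earlier results of these data known. A Hox gene is not reported here, and no count, sum or share of Hox genes includes it.

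FPKM steps gave whole reads within 0.01 reads for 19832 genes (79.5%) with the exon union length, among them all 28 Hox genes described. For 5105 genes a searched length was used, and 1 was not recovered. Recovered reads were not used in the main fit. They served for depth, counting error, the chi-square of library pairs, the rescaling to total reads, an alternative limit for calling a gene on, and limma-voom. Poisson intervals and limits at 0 reads cover counting error only. The 12222 genes that exceeded 1 FPKM in 3 or more libraries were tested in limma (version 3.58.1, R version 4.3.3) on log2(FPKM + 1) with a trended, robust variance prior, at a Benjamini-Hochberg adjusted p of 0.05. The fit was tested on simulated data. Pairs of libraries were compared by chi-square over genes of at least 20 reads. Replicate numbers were not used as pairs. Alternatives covered pseudocounts, filters, scaling, weights, left-out libraries, the replicate block and the limit for calling a gene on. Quantile normalization and array weights with averaged controls were added after seeing the data. Named were all Hox genes that were on, the 3 highest Hox genes between 0.1 and 1 FPKM, the 3 tested Hox genes with the smallest p, Hox genes whose groups did not overlap, and of each list other than the cell type markers the 2 highest and the 2 of smallest p. Hox genes under 0.1 FPKM and the genes named outside that rule (the group comparison of Hoxd4 among them) were chosen after their values were seen. RefSeq starts, microRNAs and annotated 3′ UTRs were searched for exact letters.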

Additional observations from a re-analysis of the deposited data

How the results depend on the processing

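Of 346 recomputed Hox differences 311 kept their sign and their side of the threshold and 35 changed sign, none past the threshold. Of 260 for other named genes 253 kept both, 0 changed sign and 7 passed the threshold, all with array weights: Kmt2d (adjusted p = 0.024), Rbbp4, Pcgf2, Hoxaas3, Hnrnpa3, En1 and Aldh1a1. With array weights and averaged controls none of these 7 passed (adjusted p = 0.916 for each). All genes called numbered 0 in the main fit, 1 with a filter and pseudocount of 0.1, 2241 with array weights and 0 with array weights and averaged controls. Leaving out each library gave 0 to 2, with 2 without control replicate 3 and 1 without overexpression replicate 1. The number of Hox genes called was 0 in every setting run. On genes ranged from 14 at 2 FPKM to 22 at 10 reads in every library, and leaving out a library gave 18 to 19. HoxC had 1 gene on at 2 FPKM and HoxD 4 at 10 reads. Replicate numbers did not pair the samples (correlations of -0.10, 0.08 and 0.003), and the replicate block called 0 genes, with 0 Hox genes called.

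Signs changed with array weights for Hoxa2 (0.13), Hoxa4 (-0.11), Hoxa7 (0.064), Hoxb7 (-0.0012), Hoxb9 (0.049) and Hoxd9 (-0.040). With array weights and averaged controls they changed for Hoxa2 (0.22), Hoxa3 (0.044), Hoxa4 (-0.18), Hoxa7 (0.12), Hoxd8 (0.0017) and Hoxd9 (-0.024). Averaged controls alone changed Hoxa7 (0.0018). Hoxd9 was -0.027 with total reads, -0.020 with the upper quartile and -0.0027 with limma-voom. Leaving out each library gave -0.19 to 0.16 for Hoxa2, -0.15 to 0.043 for Hoxa3, -0.079 to 0.15 for Hoxa4, -0.099 to 0.060 for Hoxa7, -0.15 to 0.021 for Hoxb5, -0.26 to 0.013 for Hoxb6, -0.098 to 0.19 for Hoxb7, -0.046 to 0.048 for Hoxb9, -0.0025 to 0.086 for Hoxc6 and -0.050 to 0.035 for Hoxd9. The cause was not tested. Depth limits the genes under 0.1 FPKM, which rest on at most 15 reads per library.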
